A study of Danio rerio with 2 samples.

Results

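The transcripts described here carried the highest density of ribosome footprints in zebrafish (Danio rerio) embryos collected at 2 stages, bud (the end of gastrulation, 10 hours post fertilization, hpf) and sphere (a late blastula, 4 hpf). They were chosen by their measured footprint values alone, as the transcripts whose mean over the bud and sphere libraries was at least 1000 TPM. The rule gave 143 of 24573 principal coding transcripts, 0.582% of the entries. Every value below therefore describes what the rule selected and supports no test. Embryos were wild type, of the TLAB strain, and grown unperturbed. Each stage had 1 library from a pool of 200 whole embryos, lysed with 100 µg/ml cycloheximide and 100 µg/ml tigecycline, which hold ribosomes on the mRNA. With 1 library per stage there was no spread between replicates against which a difference could be judged, and none is called significant. A pool of whole embryos also does not separate a change within cells from a change in how many cells carry a transcript.

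Ribosome profiling sequences the mRNA fragments that ribosomes shield from nuclease. The number of footprints on a transcript depends both on how much of the mRNA is present and on how densely ribosomes occupy it, and these cannot be told apart in footprints alone. The unit TPM (transcripts per 1000000) divides footprints by transcript length and scales each library to the same sum, so a share of TPM is a share of length-corrected footprints and not of reads. According to the paper, bulk activation of the embryo's own genome is already under way at sphere. By bud, the set of mRNAs made from that genome is in place. Some mRNAs stored in the egg persist through this handover. Ribosomal proteins are among the most abundant products of growing cells, and in mammals their mRNAs belong to the terminal oligopyrimidine (TOP) class, whose translation follows nutrient and growth signalling.

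Gene symbols could be given to 6 of the 143 transcripts. HMGB2 (a DNA-bending chromatin protein), HSPA8 (a constitutive heat shock cognate chaperone), npm1a (a nucleophosmin, a nucleolar protein and histone chaperone), TPT1 (translationally controlled tumour protein, a TOP mRNA in mammals), and RPS6 and RPS3A (both proteins of the small ribosomal subunit) are the named members, with symbols printed as the reference table spells them. The other 137 are given here by their values and ranks, since nothing at hand paired their transcript identifiers with genes.

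The 143 transcripts held 43.9% of all TPM in bud and 48.9% in sphere. That was 75.5 times the share that equal abundance would give them in bud and 84.0 times in sphere. A large multiple follows from choosing the members by these same values. For comparison, the 143 highest entries of each library held 45.7% of TPM in bud and 52.6% in sphere. No member was listed at 0 in either library. In bud their values ran over a 287-fold range, with a lowest value of 78.1, a median of 2360 and a highest value of 22430 TPM. In sphere the range was 950-fold, with a lowest value of 46.5, a median of 1518 and a highest value of 44155 TPM. Both ranges are shaped by the rule, since 57 members reached 1000 TPM in bud only and 11 in sphere only. Among the 75 members that reached it at both stages, the range was 21.4-fold in bud and 20.8-fold in sphere. As a whole, the set chosen by the rule was more evenly filled in bud. There, the 36 highest members made up 50% of the set's TPM, whereas 16 did so in sphere. The effective number of members, the number of equally abundant transcripts that would give the same concentration (inverse Simpson index), was 83.7 in bud and 34.9 in sphere. Without a pair of entries with identical values, described below, it was 83.5 in bud and 54.3 in sphere.

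**Figure D1:**
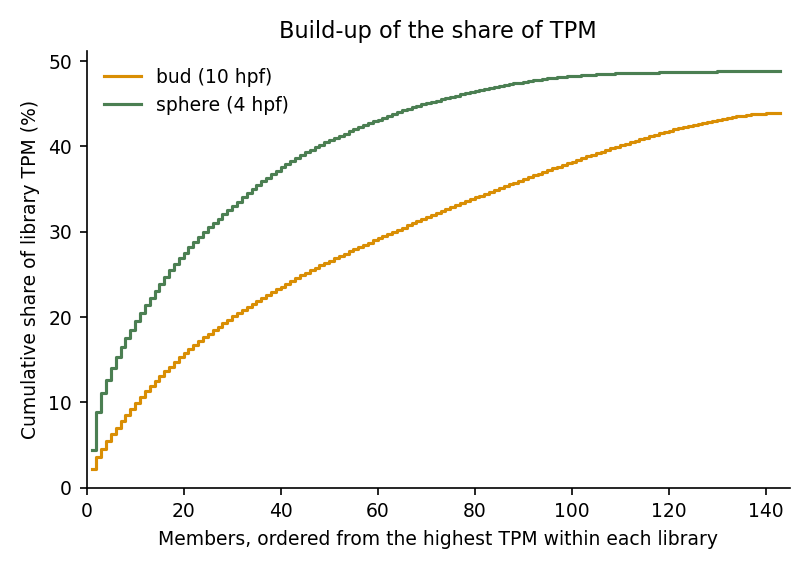
Cumulative share of library TPM (y axis, %) held by the 143 transcripts, ordered from the highest TPM within each library (x axis), in bud and in sphere (1 library each). The sphere curve climbs faster and ends at 48.9%, and the bud curve ends at 43.9%.

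The name "highly translated at both stages" suited only part of the set. At least 1000 TPM was reached at both stages by 75 members, in bud only by 57 and in sphere only by 11. The 57 bud-only members held 14.0% of TPM in bud and 1.68% in sphere, and the 11 sphere-only members held 0.599% in bud and 10.9% in sphere. Conversely, 64 transcripts with at least 1000 TPM in bud and 17 with at least 1000 TPM in sphere stayed outside the set because their mean was lower.

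**Figure D2:**
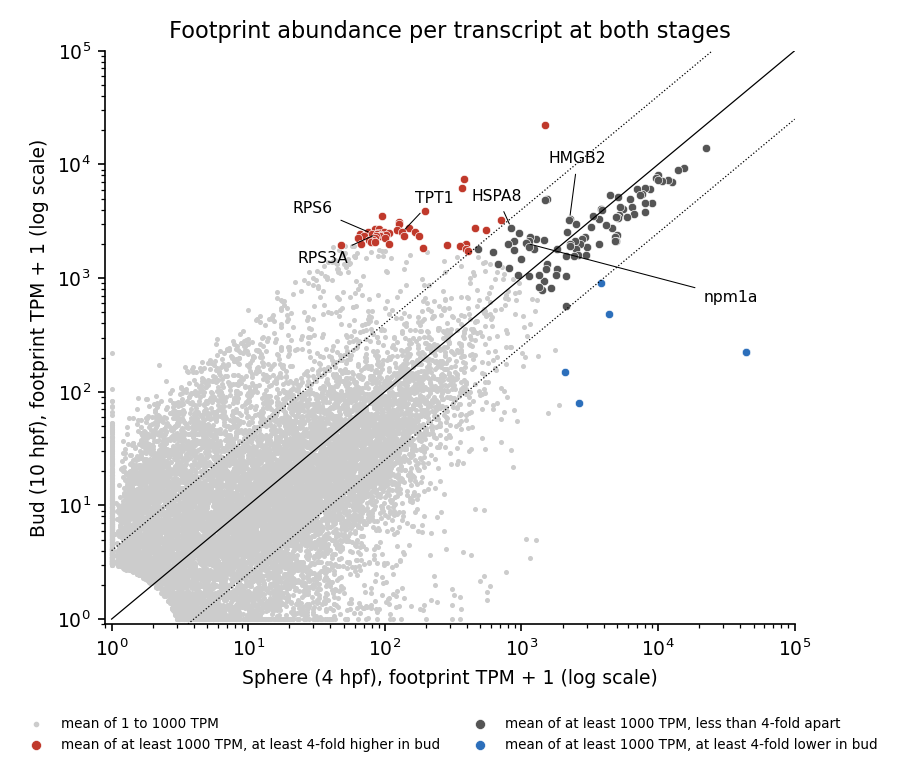
Footprint abundance in bud (y axis) against sphere (x axis), both as TPM + 1 on log scales, with pale grey points for transcripts averaging 1 to 1000 TPM, dark points for the 143 members (red, at least 4-fold higher in bud, blue, at least 4-fold lower, and dark grey, less than 4-fold apart), the 6 named members marked, a solid line for equality and dotted lines for 4-fold differences. The 47 red points lie between 1738 and 22430 TPM in bud and between 46.5 and 1487 TPM in sphere.

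The change of each transcript was expressed as log2((bud TPM + 1)/(sphere TPM + 1)), so that a positive value means a higher value in bud. Of the 143 members, 47 (32.9%) had values in bud at least 4-fold higher, and 6 (4.20%) at least 4-fold lower. All 13561 transcripts averaging 1 TPM or more served as background, and of these 20.6% passed the 4-fold limit as higher in bud and 15.5% as lower. Another 10 members were 2- to 4-fold higher in bud, against 14.1% of all transcripts, and 8 were 2- to 4-fold lower, against 16.2%. The remaining 72 members (50.3%) differed by less than 2-fold, against 33.6% of all transcripts. Because the same values chose the members and give their changes, these percentages are set side by side without a test.

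The members' changes had a pair of peaks. The median log2 ratio was 0.16, compared with -0.0067 over the background. There were 53 members with a log2 ratio between -1 and 0, 19 between 0 and 1, 10 between 1 and 2, 8 between 2 and 3, 4 between 3 and 4, and 28 between 4 and 5. A rise of at least 16-fold (a log2 ratio of at least 4) was seen for 35 members (24.5%), against 4.39% of all transcripts. The 4.39% is lowered by transcripts whose mean was too low to reach this limit with a pseudocount of 1. In transcripts averaging 10 TPM or more the share was 7.37%, and between 100 and 1000 TPM it was 12.0%. All 35 members had at most 378 TPM in sphere, so they entered the set through their bud values.

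**Figure D3:**
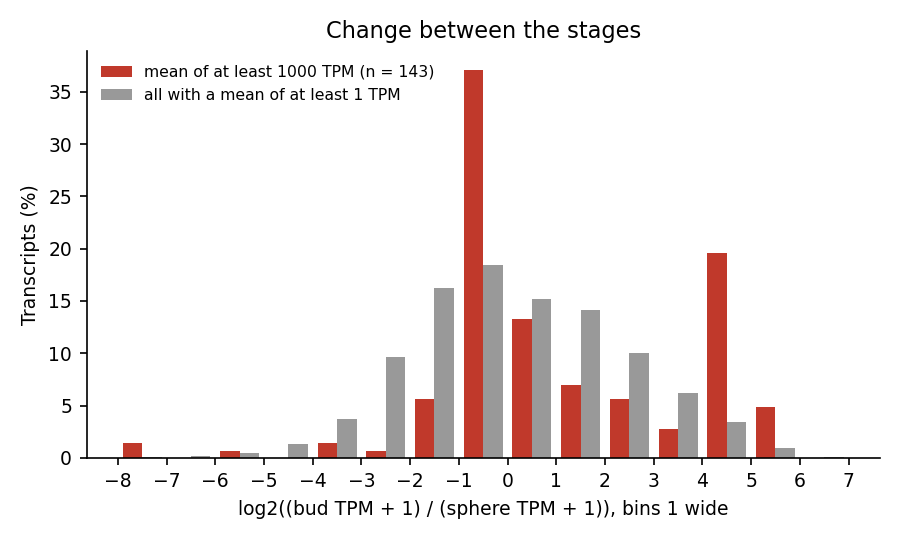
Distribution of log2((bud TPM + 1)/(sphere TPM + 1)) in bins 1 wide (x axis), as a percentage of transcripts (y axis), for the 143 members and for the 13561 background transcripts. The members show a peak of 53 transcripts between -1 and 0 and another of 28 between 4 and 5.

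Among the 75 members with at least 1000 TPM at both stages, 56 were lower in bud and 19 higher, with a median log2 ratio of -0.43 and quartiles of -0.68 and 0.0081. The median over the background was -0.0067. These 75 members held 29.3% of TPM in bud and 36.3% in sphere. Their median was 3249 TPM in bud and 3696 TPM in sphere. The transcript ranked 2 in bud had 13953 TPM in bud and 22479 TPM in sphere. The next had 9253 TPM in bud and 15572 TPM in sphere, and that ranked 4 in bud had 8956 TPM in bud and 13915 TPM in sphere. All 3 kept their order, at ranks 3, 4 and 5 in sphere, and were lower in bud by log2 ratios between -0.75 and -0.64.

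The 72 members that differed by less than 2-fold made up most of the set's TPM, with 25.3% of TPM in bud and 33.5% in sphere. Their values in bud had a lowest value of 791, a median of 2883 and a highest value of 13953 TPM, and in sphere a lowest value of 808, a median of 3117 and a highest value of 22479 TPM. That the ranges overlapped nearly throughout follows from the 2-fold limit. Of the 72, 53 were lower in bud. In the background, 2496 transcripts had a log2 ratio between -1 and 0, and 2060 between 0 and 1. The 10 members 2- to 4-fold higher in bud had a median of 2038 TPM in bud and 857 TPM in sphere, and held 2.57% of TPM in bud and 0.914% in sphere. The 8 members 2- to 4-fold lower had a median of 2133 TPM in bud and 4844 TPM in sphere, and held 1.51% in bud and 3.35% in sphere.

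Of the named members, HMGB2, npm1a and HSPA8 lay within the 4-fold limits, and all 3 had higher values in bud. HMGB2 had 3296 TPM in bud and 2250 TPM in sphere, a log2 ratio of 0.55, and ranked 41 in bud and 59 in sphere. The nucleophosmin npm1a had 2027 TPM in bud and 1080 TPM in sphere, a log2 ratio of 0.91, and held nearly the same rank, 95 in bud and 98 in sphere. HSPA8 had 2772 TPM in bud and 839 TPM in sphere, a log2 ratio of 1.72, and ranked 49 in bud and 118 in sphere.

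The members at least 4-fold higher in bud held 14.3% of TPM in bud and 0.948% in sphere. The 35 that were at least 16-fold higher are described next. Their values in bud had a lowest value of 1958, a median of 2418 and a highest value of 7471 TPM, and in sphere a lowest value of 46.5, a median of 90.6 and a highest value of 378 TPM. That bud and sphere values did not overlap here follows from the selection, as does the lower edge in bud, since a transcript with little in sphere needs nearly 2000 TPM in bud to enter. The quartiles of their log2 ratios were 4.51 and 4.88. The SD of log2 TPM among them was 0.41 in bud and 0.62 in sphere. Their ranks ran from 7 to 103 in bud and from 271 to 2824 in sphere. The most abundant of them in bud stood well above the others, 1 with 7471 TPM in bud and 378 TPM in sphere, and another with 6175 TPM in bud and 369 TPM in sphere. The 10 largest rises, with log2 ratios from 4.88 to 5.37, all came from transcripts that had less than 100 TPM in sphere.

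The 3 named members of this group are connected with the translation machinery or, in mammals, with its TOP class. The other members of the group had no symbol, so this says nothing about them. RPS6 had 2465 TPM in bud and 79.5 TPM in sphere, a log2 ratio of 4.94. RPS3A had 2440 TPM in bud and 86.0 TPM in sphere, a log2 ratio of 4.81. The ribosomal proteins ranked next to each other in bud, at 65 and 66, and 1785 and 1651 in sphere. TPT1 had 2533 TPM in bud and 133 TPM in sphere, a log2 ratio of 4.24, and ranked 60 in bud and 1002 in sphere.

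**Figure D4:**
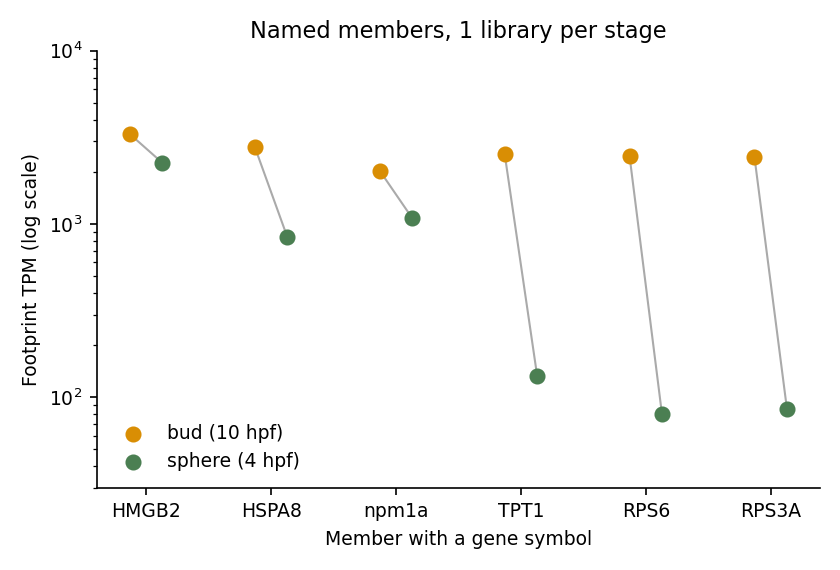
Footprint TPM on a log scale (y axis) of the 6 members with a gene symbol (x axis), in bud (left point of each pair) and in sphere (right point), 1 library per stage. The bud values lie between 2027 and 3296 TPM, and the sphere values lie between 79.5 and 2250 TPM.

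The list of cytosolic ribosomal proteins held 5 genes that could be named anywhere in the table, including the 2 members. At least 4-fold higher values in bud were found for 4 of the 5, and at least 4-fold lower values for none. RPL24 of the large subunit had 1137 TPM in bud and 26.7 TPM in sphere, and RPS25 of the small subunit had 1781 TPM in bud and 45.5 TPM in sphere, so that both fell short of a mean of 1000 TPM. Their log2 ratios were 5.36 for RPL24 and 5.26 for RPS25. The fifth, faub, whose mammalian counterpart encodes a ubiquitin-like protein fused to ribosomal protein S30, had 68.8 TPM in bud and 191 TPM in sphere, a log2 ratio of -1.46. Over all background transcripts the shares at this limit were the 20.6% higher and 15.5% lower given above, and the few genes of each list that had names allow no reading of a list against them. Of the chromatin protein list, which holds HMGB2 and npm1a, 1 of 5 named genes was at least 4-fold higher in bud (hmgn1b, a nucleosome-binding protein, with 1051 TPM in bud and 67.7 TPM in sphere) and none lower. Of the chaperone list, which holds HSPA8, 2 of 6 were at least 4-fold higher and 1 at least 4-fold lower. The higher ones were CCT4, a subunit of the cytosolic chaperonin, with 465 TPM in bud and 45.4 TPM in sphere, and DNAJB14, a J-domain co-chaperone, with only 4.59 TPM in bud and 0.235 TPM in sphere. The lower one was dnajb1b, another J-domain co-chaperone, with 88.3 TPM in bud and 412 TPM in sphere.

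The other 12 members at least 4-fold higher in bud rose by less than 16-fold. They included ENSDART00000023156, the most abundant transcript in bud, with 22430 TPM there and 1487 TPM in sphere, where it ranked 77. It alone held 2.24% of TPM in bud and 0.149% in sphere, and it was the only transcript at least 4-fold higher in bud that also had at least 1000 TPM in sphere. Among the 12, bud values had a lowest value of 1738 and a median of 2161 TPM, and sphere values a lowest value of 166 and a median of 394 TPM. The largest rise among all members was that of ENSDART00000133213, with 1958 TPM in bud and 46.5 TPM in sphere, a log2 ratio of 5.37. This transcript was also close to the threshold of the rule.

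The 6 members at least 4-fold lower in bud held 0.206% of TPM in bud and 10.1% in sphere. Most of that was due to ENSDART00000188176 and ENSDART00000186841, which carried exactly the same values, 221 TPM in bud and 44155 TPM in sphere. They shared the first rank in sphere and rank 594 in bud, and each was 200-fold lower in bud (a log2 ratio of -7.63). Together they made up 0.0443% of TPM in bud and 8.83% in sphere. How both entries came by the same value was not stated, and whether they are near-identical copies could not be seen from the identifiers. Of the other 4, the most strongly changed had 78.1 TPM in bud and 2621 TPM in sphere, and another had 147 TPM in bud and 2083 TPM in sphere. The remaining pair had 480 TPM in bud and 4365 TPM in sphere, and 911 TPM in bud and 3817 TPM in sphere. Without the identical pair the 4 held 0.162% of TPM in bud and 1.29% in sphere.

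**Figure D5:**
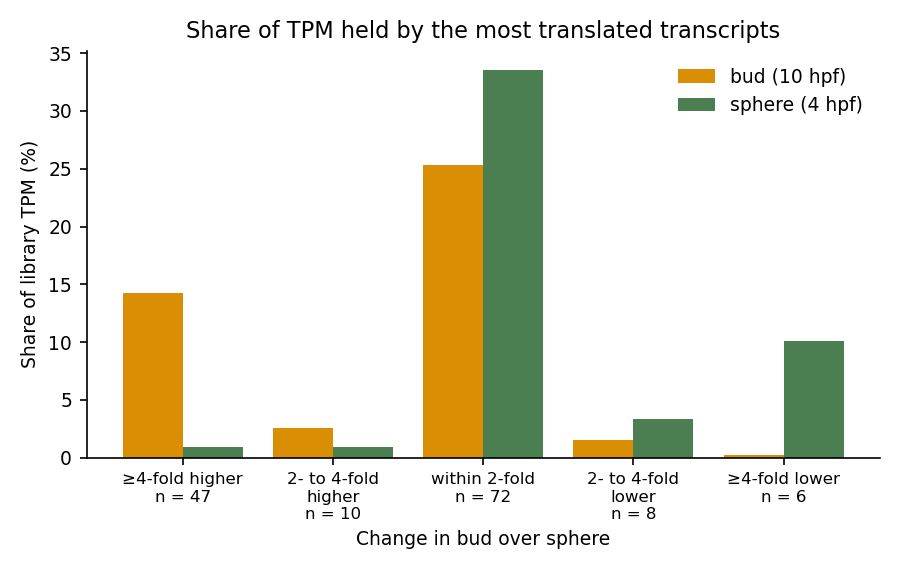
Share of library TPM (y axis, %) in bud (left bar) and sphere (right bar) for the 143 members grouped by their change (x axis, with the number of transcripts). The 47 members at least 4-fold higher in bud hold 14.3% in bud and 0.948% in sphere, and the 6 at least 4-fold lower hold 0.206% in bud and 10.1% in sphere.

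The net change in the share of the set was small compared with the movement inside it. Share was gained in bud by 76 members and lost by 67. The background had a median log2 ratio of -0.0067, so rises and falls were about equally frequent there. Summed over members, the gains came to 16.1 percentage points of TPM and the losses to -21.1 points, for a net change of -4.96 points. The identical pair decided the sign of this net change. Without both entries, the members held 43.9% of TPM in bud and 40.0% in sphere, a net change of 3.83 points.

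In rank order, 100 members filled the first 100 places in bud, and 86 of the first 100 places in sphere were taken by members. By the rule any transcript with at least 2000 TPM at either stage is a member, so most of these places were fixed in advance. The 10 highest transcripts of bud had between 7139 and 22430 TPM there and between 378 and 22479 TPM in sphere. The 10 highest of sphere had between 221 and 13953 TPM in bud and between 9915 and 44155 TPM in sphere. These lists shared 7 entries, and those of the 20 highest shared 14. The 7 entries held 6.21% of TPM in bud and 9.44% in sphere, and all 7 were lower in bud. The median log2 ratio over the background was -0.0067. Across the 143 members, Spearman's rho between bud and sphere values was 0.313. Across the 75 with at least 1000 TPM at both stages it was 0.749. These values run across transcripts of the same 2 libraries, are shaped by the rule, and are given as a description. Rank improved in bud for 79 members, worsened for 63 and stayed at 61 for 1 transcript, with a median shift of 69 places in either direction. In sphere 30 members ranked below 1000, and in bud 1 did. This contrast is also shaped by the rule, since 57 members reached 1000 TPM in bud only and 11 in sphere only.

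Bands of mean abundance differed in the share of strong rises. Rises of at least 16-fold were found in 0.603% of the 5966 transcripts with a mean of 1 to 10 TPM, in 6.11% of the 6256 with 10 to 100 TPM, in 12.0% of the 1196 with 100 to 1000 TPM, and in 24.5% of the 143 members. Within the members the share did not go on climbing, as only 3 of the 65 that averaged 2000 TPM or more rose 16-fold. That low share is partly set by the cut itself. To reach such a mean, a transcript low in sphere needs a bud value well above 2418 TPM, the median of the 35 members that rose 16-fold. A 4-fold rise was found in 21.1%, 19.5%, 22.4% and 32.9% of the same bands, with no steady climb over the lower ones. The band of 100 to 1000 TPM is wide, and its upper part differed from the whole. At a mean of at least 500 TPM, 106 of 272 transcripts rose at least 4-fold, against 47 of the 143 members. Such rises were therefore more frequent just below the threshold than in the members. A 4-fold fall was found in 12.2%, 19.1%, 14.1% and 4.20% of the same bands. With a pseudocount of 1, a 16-fold rise is out of reach for much of the lowest band, even at 0 TPM in sphere. The 0.603% at the foot of this climb is therefore largely set by the scale. The band of 100 to 1000 TPM, the nearest to the members, had a median log2 ratio of -0.17, against 0.16 in the members. The members' median moved both ways under other rules. It was 0.73 at a mean of at least 500 TPM, and its sign turned under stricter rules. The median was -0.47 for members averaging 2000 TPM or more, -0.43 for those reaching 1000 TPM at both stages and -0.35 for transcripts whose geometric mean reached 1000 TPM.

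The threshold cut through a continuous range. Just inside it were transcripts with 1342 TPM in bud and 670 TPM in sphere, with 1958 TPM in bud and 46.5 TPM in sphere, and with 1056 TPM in bud and 948 TPM in sphere. Just outside were transcripts with 1518 TPM in bud and 478 TPM in sphere, with 1933 TPM in bud and 56.3 TPM in sphere, and with 1258 TPM in bud and 726 TPM in sphere. A transcript far higher in bud stood on either side.

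Some members had nearly equal values. Besides the identical pair, 5 further pairs had values within 2% of each other at both stages, and together the 6 pairs held 11 members. The authors kept uniquely placed alignments to the genome, but the tool behind the TPM values was not stated. Whether reads that align to several places entered these values is therefore unknown, and their effect on near-identical genes was not tested. How many such pairs would arise among unrelated transcripts was not tested either.

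TPM keeps no read number, so the footprints behind each value are unknown and no counting interval is given. Among transcripts present in both libraries with less than 0.5 TPM in sphere, the most frequent ratio of bud to sphere was 0.275. It was taken, without a check, as 1 footprint against 1. On that reading a bud footprint was worth 0.275 times a sphere footprint on the same transcript. In 233 transcripts the bud and sphere values stood in this ratio within 0.1%, as equal footprint numbers would give, and on each of them a footprint was worth at most its own value. These values had a median of 0.182 TPM in bud and 0.663 TPM in sphere, and a 95th percentile of 6.44 TPM in bud and 23.4 TPM in sphere. The lowest member value in bud, 78.1 TPM, was 428 times the median and 12.1 times the 95th percentile. The lowest in sphere, 46.5 TPM, was 70.1 times the median and 1.99 times the 95th percentile. What a footprint was worth on the members themselves depends on their lengths, which were not at hand. The stage labels could hardly be checked with the markers set for that purpose, since only aplnrb (an apelin receptor) had a name. It was set as a late gastrula marker and had 59.3 TPM in bud and 69.4 TPM in sphere. With a log2 ratio of -0.22 it was slightly lower in bud, and so gave no support to the labels. Of 4 named egg coat and oocyte genes averaging 1 TPM or more, 3 passed the 4-fold limit as lower in bud, against 15.5% of the background. That list was not set as a check of the labels, and 4 genes are too few to check them. The egg coat gene zp3c had 0.413 TPM in bud and 101 TPM in sphere, cldng, a claudin, had 0.620 TPM in bud and 322 TPM in sphere, and tdrd7a, a tudor domain gene of germ granules, had 2.68 TPM in bud and 81.9 TPM in sphere. The fourth, NANOS3, had 8.47 TPM in bud and 10.7 TPM in sphere.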

How the data were processed

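Ribosome footprints from 1 bud and 1 sphere library were examined. Per the study's methods, the authors trimmed adapters (Cutadapt), filtered out rRNA (Bowtie) and kept uniquely placed alignments to GRCz11 (STAR 2.6.1c in the submitters' processing notes). The deposited values are TPM per principal coding transcript, and the tool that computed them from footprints was not stated. The deposited codon dwell times are per codon and were not used.

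Members, gene lists and groups were chosen with earlier results of these data known. Ratios used a pseudocount of 1 TPM, and the comparison set had a mean of at least 1 TPM. No test was run. Counting of changes was tested on simulated data with 200 altered transcripts. The other transcripts were equal at both stages and no noise was added. It therefore checked the counting alone, and not calls made from 1 library per stage.

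Transcript identifiers were paired with genes where the mean RNA-seq TPM at both stages in a supplementary table by transcript equalled that of exactly 1 gene in another (relative tolerance 1e-05), and the gene with its symbol through the reference table. Those supplementary tables were shortened. Of 1998 transcripts held, 1482 were paired and 1427 had a symbol. All 6 members held there were named. The RNA-seq values served for nothing else. No sequences or positions were used. A kinase matched by the ribosomal protein symbols was left out. Named genes were the highest and most changed members, those near the threshold, identical entries and, outside this rule and after their values were seen, all members with a symbol and the list genes. Without a symbol, only 2 identifiers that rose and 2 that fell are printed. Python 3.11.15 with pandas 2.3.3 was used.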

Additional observations from a re-analysis of the deposited data

How the results depend on the processing

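Of 49 planned values under other settings, 33 stayed within 1.5 times the value reported (for log2 ratios, a difference of that size with the same sign). The 33 include the numbers of members higher and lower with a background averaging 10 TPM or more, which that setting could not change. They also include values under other pseudocounts, which could hardly move since no member lay below 46.5 TPM. Pseudocounts, median centring and counting the identical pair once moved no value that far. Nor did any of 13 values without that pair, with or without rescaling, a choice made after seeing the data. Quantities that do depend on the pair were not among the 13. The net change in share was -4.96 points with the pair and 3.83 points without it. The effective number of members in sphere was 34.9 with the pair and 54.3 without it. The threshold mattered most. At a mean of at least 500 TPM there were 272 transcripts, 106 at least 4-fold higher in bud and 16 lower, with rho = 0.189. Their median log2 ratio was 0.73. At a mean of at least 2000 TPM there were 65, with 28.5% of bud TPM, 4 higher in bud and a median log2 ratio of -0.47. With at least 1000 TPM at both stages there were 75, with 1 higher and 0 lower, a median log2 ratio of -0.43 and rho = 0.749. By a geometric mean of at least 1000 TPM 6 were higher, and the median log2 ratio was -0.35. By construction the last 2 settings remove transcripts low at 1 stage. A mean of at least 2000 TPM likewise requires a higher bud value of a transcript low in sphere. The 35 members at least 16-fold higher had a median of only 2418 TPM in bud. The cause of the other changes was not tested. At a 2-fold change 57 of the 143 members were higher in bud and 14 lower. Of transcripts averaging 1 TPM or more, 20.6% were at least 4-fold higher and a further 14.1% were 2- to 4-fold higher. On the lower side the shares were 15.5% and 16.2%. With a background averaging 10 TPM or more, the percentages at the 4-fold limit were 20.2% higher and 18% lower. Weighting by coding length and rescaling without ribosomal proteins were not run, since neither lengths nor complete names were at hand. No paired analysis was possible because bud and sphere each came from 1 library, which also left none to omit. How far depth limits single values could not be measured, since TPM gives no footprint numbers.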
